A study of Mus musculus with 4 samples.

Results

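The aminoacyl-tRNA synthetases, the enzymes that attach each amino acid to its tRNA, were followed in mouse embryonic stem cells (ESCs) with and without an intact *Zfp296* gene. The genes were chosen by symbol. They were 20 genes for cytosolic synthetases, 15 genes for mitochondrial synthetases and 2 genes (*Aimp1* and *Aimp2*) for scaffold proteins that hold several cytosolic synthetases in one complex. All 37 were found among the 48526 gene rows of the count tables, and all 37 were among the 12883 genes with enough counts to be tested.

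Each synthetase recognises 1 amino acid, or a pair in the case of *Eprs*, and its own tRNAs, and so supplies charged tRNA to the ribosome. Cytosolic and mitochondrial ribosomes draw on separate sets of these enzymes, all encoded in the nucleus, although the products of *Gars* and *Kars* serve both compartments. When charged tRNA runs short, the kinase GCN2 (*Eif2ak4*) phosphorylates the initiation factor eIF2, translation of the transcription factor ATF4 rises, and ATF4 activates genes of amino acid synthesis and import together with many cytosolic synthetases, through C/EBP-ATF response elements.

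RNA was sequenced from wild-type R1 ESCs (WT, n = 2), an established mouse line, and from *Zfp296* CRISPR KO clone 2 R1 ESCs (KO2, n = 2). According to the methods the RNA was isolated in duplicate, and they do not state whether the duplicates came from separate cultures. *Zfp296* encodes a zinc finger protein that the study describes as a partner of the NuRD and SIN3A chromatin complexes, and the comparison asked which transcripts change when it is lost. KO2 is 1 monoclonal line, made with a guide RNA to the first exon of *Zfp296*. The deletion and any other difference between this clone and the WT cells therefore cannot be told apart. According to the methods, both lines were grown on gelatine in serum, LIF and the inhibitors PD0325901 and CHIR99021.

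Counts on genes summed to between 2829914 and 7470907 per library, and both KO2 libraries were deeper than both WT libraries. Levels are given as counts-per-million (CPM) after scaling with the TMM method. The *Zfp296* transcript was at 11.6 and 7.33 CPM in WT and at 52.8 and 37.7 CPM in KO2. It was higher in KO2 (log2 fold change 2.31, SE 0.28, edgeR adjusted p = 4.55e-05). Since a guide to an exon need not lower the transcript, this level does not check the label. According to the study, the KO clones were checked by mass spectrometry, and ZFP296 depletion differed between its KO lines. Stem cell markers (*Pou5f1*, *Nanog*, *Klf4*, *Esrrb*, *Zfp42*, *Tdgf1*, *Dppa5a*) had mean levels of 236 CPM or more in each group, *Utf1* had means of 9.47 (WT) and 3.69 CPM (KO2), and *Sox2* fell from 839 to 486 CPM. Markers of fibroblasts and primitive endoderm had means of at most 3.19 CPM, and of the trophoblast and neural markers found only *Tfap2c* (90.1 CPM in WT and 135 CPM in KO2, higher) and *Nes* had more than 1.23 CPM in a group. The Y-linked gene *Uty* had a count of 0 in both WT libraries and 99.2 ± 10.7 CPM (SD, n = 2) in KO2, so the lines also differed in Y-chromosome transcripts. Of all genes tested, 727 (5.64%) passed an adjusted p of 0.05 in edgeR's quasi-likelihood test, 391 lower (3.04%) and 336 higher (2.61%) in KO2.

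The promoters of 28 of the 37 genes were in the RefSeq promoter table (GRCm38.p6), which runs from 250 bases before to 50 bases after each gene's start. They were searched on both strands for the core of the C/EBP-ATF response element, TGATGNAA, and for its strict form TGATGCAA, whose matches are a subset of the first. The core was present in 5 of 13 cytosolic synthetase promoters (38.5%, *Aars*, *Gars*, *Iars*, *Tars* and *Yars*), in 0 of 13 mitochondrial ones and in 0 of 2 scaffold ones, against 1219 of the 27025 genes in the table (4.51%). The strict form was in 4 of the 13 cytosolic promoters (30.8%) against 1.03% of all genes. A match is a description of letters and not a binding site, and the promoters of *Cars*, *Lars* and *Nars* were not analysed here.

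Of the promoters below, 3 show where the element lies in a gene that fell in KO2 (*Gars*), one that missed the threshold (*Tars*) and one with a fold change near 0 (*Aars*), and that of *Sars* is shown because the gene fell without a match. Each is the 250 bases before the start, read 5′ to 3′ along the gene, with the element in capitals, in all 3 cases as its reverse complement. It begins 30 bases before the start in *Gars* (chr6:55037751-55038000, + strand), 15 bases before it in *Tars* (chr15:11399659-11399908, − strand) and 112 bases before it in *Aars* (chr8:111033592-111033841, + strand), where a further match lies after the start, and the *Sars* promoter (chr3:108445260-108445509, − strand) has none.
Gars: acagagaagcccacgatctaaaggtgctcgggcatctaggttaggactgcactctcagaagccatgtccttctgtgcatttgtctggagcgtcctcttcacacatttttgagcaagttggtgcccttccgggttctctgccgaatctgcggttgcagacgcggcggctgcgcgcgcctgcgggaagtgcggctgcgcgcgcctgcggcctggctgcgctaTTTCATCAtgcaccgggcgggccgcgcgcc
Tars: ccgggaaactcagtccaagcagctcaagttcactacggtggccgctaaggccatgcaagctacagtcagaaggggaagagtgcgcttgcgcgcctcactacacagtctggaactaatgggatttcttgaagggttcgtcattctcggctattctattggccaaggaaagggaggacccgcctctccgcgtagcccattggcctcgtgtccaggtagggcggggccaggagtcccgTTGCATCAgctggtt
Aars: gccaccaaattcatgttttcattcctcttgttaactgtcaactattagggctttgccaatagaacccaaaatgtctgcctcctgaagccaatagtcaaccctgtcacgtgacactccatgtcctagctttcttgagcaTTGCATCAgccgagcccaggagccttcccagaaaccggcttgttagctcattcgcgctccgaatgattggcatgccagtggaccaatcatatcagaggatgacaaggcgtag
Sars: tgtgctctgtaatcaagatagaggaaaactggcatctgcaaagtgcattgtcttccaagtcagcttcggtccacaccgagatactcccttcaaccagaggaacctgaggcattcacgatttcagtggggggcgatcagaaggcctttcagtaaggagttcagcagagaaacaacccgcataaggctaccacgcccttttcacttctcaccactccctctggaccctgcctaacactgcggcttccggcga

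In WT ESCs, cytosolic synthetases were expressed more strongly than mitochondrial ones. Per kilobase of annotated exon, WT means ran from 17.0 (*Farsa*) to 311 CPM per kb (*Gars*) for the cytosolic enzymes. They ran from 2.88 (*Pars2*) to 16.7 CPM per kb (*Iars2*) for 14 of the 15 mitochondrial enzymes, so these ranges met without overlapping. The 15th, *Lars2*, stood at 7962 CPM per kb and is described separately. The plot of levels by library shows each gene in the 4 libraries.

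**Figure D1:**
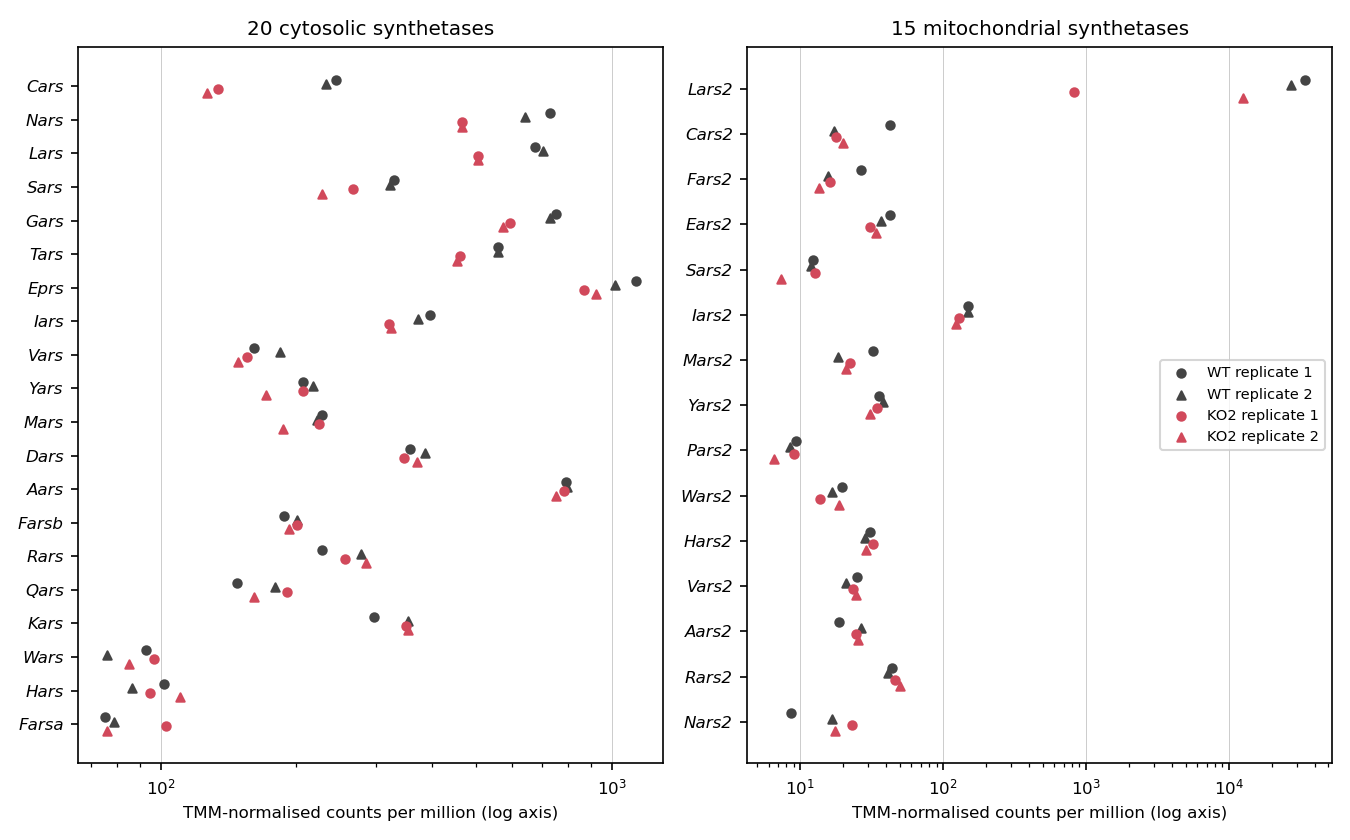
TMM-normalised CPM (log axis) of the 20 cytosolic (left) and 15 mitochondrial (right) synthetase genes in each library, ordered by log2 fold change with the lowest at the top. Grey marks are WT and red marks KO2, circles replicate 1 and triangles replicate 2. The red marks of *Cars*, *Nars*, *Lars*, *Sars* and *Gars* lie left of the grey ones, and *Lars2* lies far right of the other mitochondrial genes except in KO2 replicate 1.

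Among the cytosolic synthetases, 5 of 20 fell in KO2 and 0 rose, where 3.04% of all genes tested were lower and 2.61% higher. At an unadjusted p under 0.05 in edgeR, 8 of the 20 were lower and 0 higher, against 9.6% of all genes lower and 19.4% in either direction. The 5 were *Cars*, *Nars*, *Lars*, *Sars* and *Gars*, the enzymes for cysteine, asparagine, leucine, serine and glycine. Among the 2669 tested genes with a mean level in the range of the cytosolic members (83.3 to 985 CPM), 5.84% were lower. In 10 of the 20, both KO2 libraries lay below both WT libraries, and in 0 did both lie above, against 23.4% below and 25.4% above among all genes and 34.7% below in the same range of level. Of the 20 log2 fold changes, 13 were below 0, against 48.6% over all genes. The median log2 fold change of the 20 was −0.15, against 0.01 over all genes and −0.05 in that range. In RNA from whole cultures, less RNA per cell and fewer cells expressing a gene cannot be told apart.

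*Cars* (ENSMUSG00000010755, NCBIM37 chr7:150743135-150785995), the cysteinyl-tRNA synthetase, was at 244 and 233 CPM in WT and at 134 and 127 CPM in KO2. The groups were far apart and the replicates close. It fell by 45.2% (log2 fold change −0.87, SE 0.12, edgeR adjusted p = 0.000144), and among the 20 cytosolic genes its log2 fold change was the lowest.

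*Nars* (ENSMUSG00000024587, chr18:64659319-64676211), which charges asparagine, was at 729 and 642 CPM in WT and at 465 and 466 CPM in KO2. The WT replicates differed more from each other than the KO2 replicates did, and the groups did not overlap (log2 fold change −0.56, SE 0.10, edgeR adjusted p = 0.00321). *Lars* (ENSMUSG00000024493, chr18:42362004-42421781), the leucine enzyme and a part of the multi-synthetase complex, was at 676 and 705 CPM in WT and at 504 and 505 CPM in KO2. It fell by 26.9% (log2 fold change −0.45, SE 0.10, edgeR adjusted p = 0.0109).

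*Sars* (ENSMUSG00000068739, chr3:108227783-108248127), which charges serine, was at 329 and 323 CPM in WT and at 267 and 227 CPM in KO2 (log2 fold change −0.40, SE 0.11, edgeR adjusted p = 0.0467). *Gars* (ENSMUSG00000029777, chr6:54987995-55029498), the glycine enzyme of both compartments, was at 754 and 731 CPM in WT and at 594 and 573 CPM in KO2 (log2 fold change −0.35, SE 0.10, edgeR adjusted p = 0.0476). In both genes the groups were separate, but the adjusted p lay just under the threshold. The call of *Gars* was lost when any 1 of the 4 libraries was left out, and that of *Sars* without WT replicate 1, WT replicate 2 or KO2 replicate 2.

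The number of cytosolic synthetases called lower was 1 without WT replicate 1 (*Cars*), 2 without WT replicate 2 (*Cars* and *Nars*), 3 without KO2 replicate 2 and 4 without KO2 replicate 1. With size factors from the ERCC spike-ins, synthetic RNAs that took at most 7024 counts in a library, it was 0, and *Cars* had a log2 fold change of −0.78 (edgeR adjusted p = 0.377). Its SE was 0.34 in that run, against 0.12 in the main fit. The ERCC counts were 0.0889% and 0.0732% of gene counts in WT and 0.0940% and 0.0695% in KO2, so they differed between replicates. DESeq2 called the same 5 genes lower and 0 higher, where 2.34% of the genes it tested were lower.

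Of the cytosolic enzymes that missed the threshold, *Tars*, *Eprs* and *Iars* had the smallest adjusted p. *Tars*, for threonine, was at 560 CPM in both WT libraries and at 460 and 453 CPM in KO2 (log2 fold change −0.29, edgeR adjusted p = 0.105). *Eprs*, for glutamate and proline, was at 1133 and 1014 CPM in WT and at 869 and 922 CPM in KO2 (edgeR adjusted p = 0.157). *Iars*, for isoleucine, was at 395 and 372 CPM in WT and at 320 and 324 CPM in KO2 (edgeR adjusted p = 0.193). In these 3 genes, picked by adjusted p, both KO2 libraries were below both WT libraries. The same held for 34.7% of tested genes in the range of level of the cytosolic members. The log2 fold changes of the 3 were nearer to 0 than those of the 5 called genes. Near-identical copies elsewhere in the genome cover 28.8% of the exon bases of *Iars*, so its counts are uncertain.

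At the other end, *Farsa*, a subunit of the phenylalanine enzyme, had the highest log2 fold change of the cytosolic group (0.21, SE 0.16, edgeR adjusted p = 0.514). It was at 75.3 and 78.9 CPM in WT and at 103 and 76.1 CPM in KO2, so only KO2 replicate 1 stood above the WT libraries. *Aars*, for alanine, carries the strict response element in the promoter printed above, and it was at 792 and 797 CPM in WT and at 782 and 752 CPM in KO2 (log2 fold change −0.05, SE 0.10). The scaffold genes did not pass the test either. *Aimp1* was at 219 and 228 CPM in WT and at 207 and 202 CPM in KO2 (log2 fold change −0.13), and *Aimp2* at 14.5 and 18.0 CPM in WT and at 17.6 and 17.0 CPM in KO2 (log2 fold change 0.07). Exons of *Eif2ak1* on the opposite strand share 29.4% of the exon bases of *Aimp2*.

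**Figure D2:**
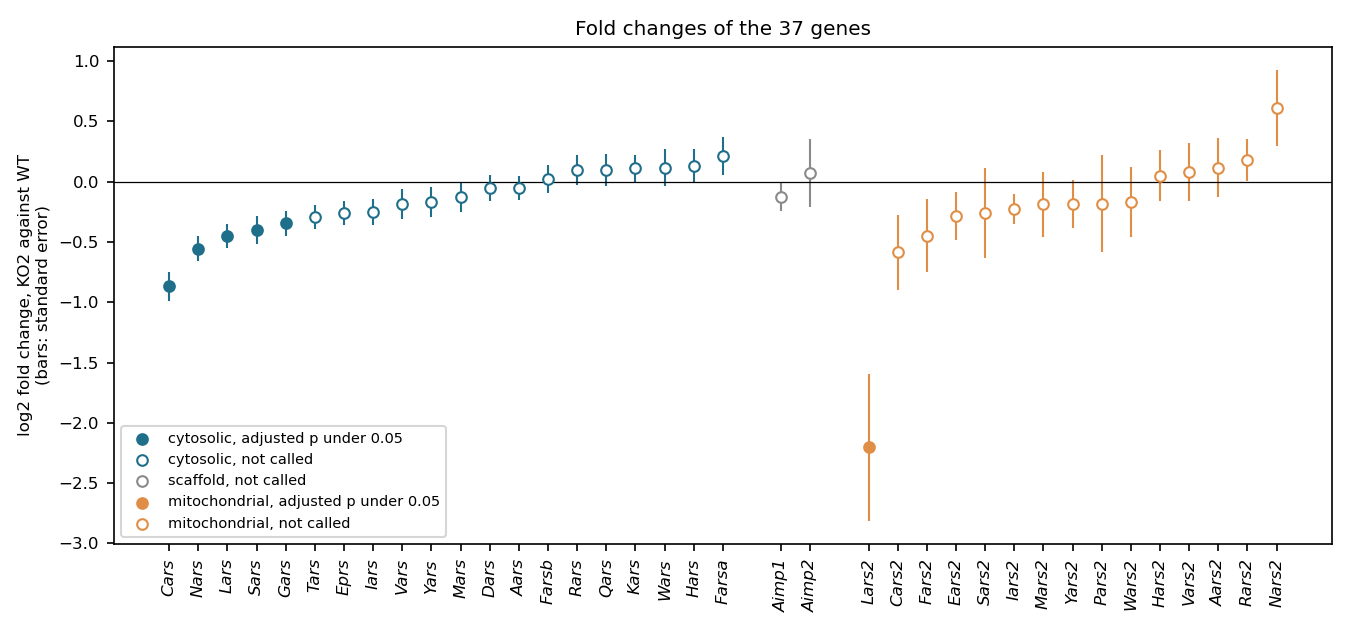
Log2 fold change of each of the 37 genes in KO2 against WT, with its standard error as a bar, for cytosolic synthetases (blue), scaffold genes (grey) and mitochondrial synthetases (orange). Filled points passed an adjusted p of 0.05 in edgeR's test, which were 5 cytosolic genes and *Lars2*, and open points did not.

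The cytosolic enzymes commonly described as ATF4 targets held all 5 calls. This list of 12 genes (*Aars*, *Cars*, *Eprs*, *Gars*, *Iars*, *Lars*, *Mars*, *Nars*, *Sars*, *Tars*, *Wars*, *Yars*) had 11 log2 fold changes below 0, both KO2 libraries below both WT libraries in 9, and a median log2 fold change of −0.28. The other 8 cytosolic genes (*Dars*, *Farsa*, *Farsb*, *Hars*, *Kars*, *Qars*, *Rars*, *Vars*) had 0 calls in edgeR and in DESeq2 and 0 at an unadjusted p under 0.05 (19.4% of all genes), with 2 log2 fold changes below 0 and a median of 0.10. Over all genes tested, 3.04% were called lower and 48.6% had a log2 fold change below 0. Both KO2 libraries lay below both WT libraries in 23.4%. In the range of level of the cytosolic members these shares were 5.84% called lower and 34.7% with both KO2 libraries below. The median of the 12 stayed below 0 in every alternative run, between −0.32 and −0.18. That of the other 8 turned to −0.03 without WT replicate 1 and to −0.01 without KO2 replicate 1. The list was drawn up with earlier results of these data known, so the split is a description. By structure, 1 of the 8 enzymes of the multi-synthetase complex was lower (*Lars*, median −0.09), and 4 of the 12 outside it were (median −0.18).

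Among the mitochondrial synthetases, 14 of 15 did not pass the test, and the exception was *Lars2*. Leaving *Lars2* aside, 9 of 14 log2 fold changes were below 0, and 0 of the 14 passed edgeR's test, DESeq2's test or an unadjusted p under 0.05 in edgeR, which 19.4% of all genes passed. Both KO2 libraries lay below both WT libraries in 3 of the 14 and above them in 2. Of the 7365 tested genes in their range of level (8.34 to 138 CPM), 3.27% were called lower and 23.2% had both KO2 libraries below both WT libraries. Their median log2 fold change was −0.18, close to the −0.15 of the cytosolic genes, so the medians did not separate the compartments. With 1 library left out, the mitochondrial median ranged from −0.24 (without WT replicate 2) to −0.04 (without KO2 replicate 2) and was −0.06 without WT replicate 1, and the cytosolic one ranged from −0.22 (without KO2 replicate 1) to −0.07 (without KO2 replicate 2). With *Lars2* included, the cytosolic median was 0.04 above the mitochondrial one, and this difference turned to −0.08 without WT replicate 1. The standard errors differed, from 0.10 to 0.16 for cytosolic and from 0.12 to 0.40 for these mitochondrial genes, whose counts were lower, so that a fall of the size seen in *Sars* or *Gars* would have been under 2 standard errors in most of them.

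The mitochondrial partners of the called enzymes varied between replicates. *Cars2*, for cysteine, was at 42.5 and 17.2 CPM in WT and at 17.9 and 20.1 CPM in KO2 (log2 fold change −0.59, SE 0.31, edgeR adjusted p = 0.318). Its fold change rested on WT replicate 1, and it was called lower when WT replicate 2 was left out. *Nars2*, for asparagine, had the highest log2 fold change of the mitochondrial group (0.61, SE 0.32, edgeR adjusted p = 0.305), at 8.57 and 16.8 CPM in WT and at 23.0 and 17.6 CPM in KO2. *Sars2*, for serine, was at 12.3 and 11.8 CPM in WT and at 12.7 and 7.35 CPM in KO2, where the KO2 libraries lay on either side of WT. *Iars2*, the most abundant of the 14 per length, was at 148 and 149 CPM in WT and at 130 and 124 CPM in KO2 without passing the test (edgeR adjusted p = 0.331), and 22.7% of its exon bases are shared with *Rab3gap2* on the opposite strand.

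Within a library, the ratio of the cytosolic to the mitochondrial enzyme of the same amino acid does not depend on the scaling. There were 14 such pairs. In 11 the ratios of the 2 groups overlapped, in *Nars*/*Nars2* both KO2 ratios were below both WT ratios (difference of log2 ratios −1.30), and in *Farsa*/*Fars2* (0.65) and *Lars*/*Lars2* (2.80) both were above. For *Nars*/*Nars2* the log2 ratio was 6.41 and 5.26 in WT and 4.34 and 4.72 in KO2. The ratios are a description, and no pair was tested. Separate groups were no more common in them (1 of 14 below and 2 of 14 above) than among single genes (23.4% below and 25.4% above).

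**Figure D3:**
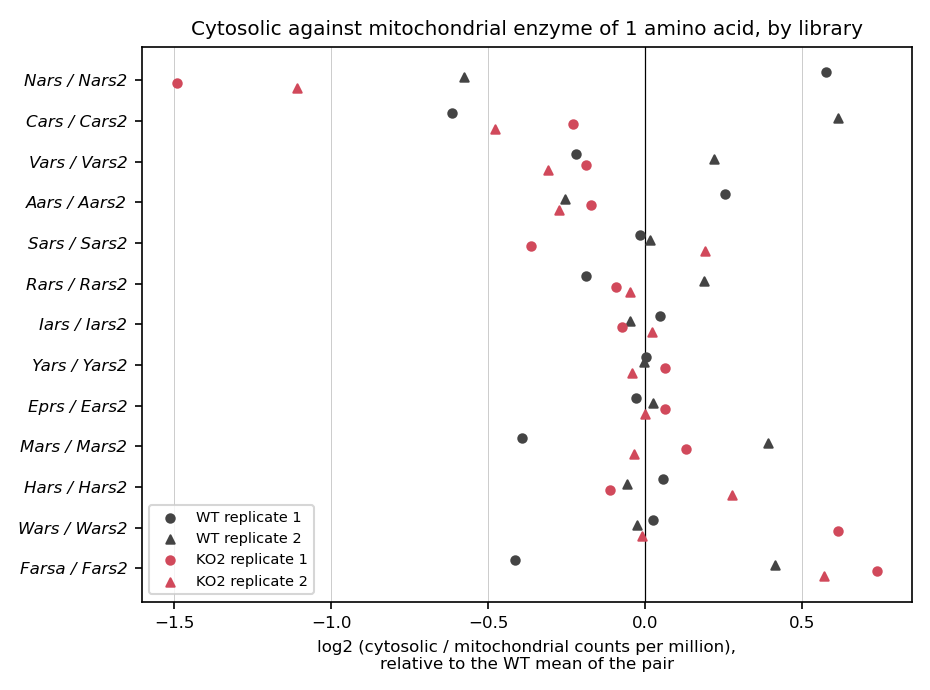
Log2 ratio of the cytosolic to the mitochondrial enzyme's CPM for 13 amino acids (the leucine pair is left out), relative to the WT mean of each pair, in WT (grey) and KO2 (red), with circles for replicate 1 and triangles for replicate 2. Both red marks lie left of both grey marks for *Nars*/*Nars2* and right of them for *Farsa*/*Fars2*, and the groups overlap for the other 11.

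Summed over the 20 cytosolic genes, the level was 7666 ± 39.9 CPM (SD, n = 2) in WT and 6555 ± 93.3 CPM in KO2. The sum over 14 mitochondrial genes, without *Lars2*, was 471 ± 35.6 CPM in WT and 429 ± 11.0 CPM in KO2. The log2 ratio of the sums was 3.95 and 4.10 in WT and 3.92 and 3.94 in KO2, a difference of −0.09 that was little larger than the spread between replicates (SD 0.07). With *Lars2* in the mitochondrial sum, the difference was 2.72, so that this ratio rested on 1 gene.

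*Lars2* (ENSMUSG00000035202, NCBIM37 chr9:123276058-123371782), the mitochondrial leucyl-tRNA synthetase, was counted 92497 and 115675 times in the WT libraries and 6490 and 94194 times in the KO2 libraries. This was 3.27% and 2.67% of all gene counts in WT, and 0.0869% and 1.27% in KO2. Its levels were 34471 and 27333 CPM in WT and 823 and 12591 CPM in KO2, and in WT replicate 1 it had the most counts of all genes. Both KO2 libraries were below both WT libraries, but they differed from each other 15.3-fold. The log2 fold change was −2.20 (SE 0.61, edgeR adjusted p = 0.0408), DESeq2 gave an adjusted p of 0.603, and edgeR's call was lost without WT replicate 1 or WT replicate 2. Without KO2 replicate 1 the log2 fold change was −1.29, and without KO2 replicate 2 it was −5.23.

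Levels in KO2 replicate 1 far below those in KO2 replicate 2 were rare, and gaps in the opposite direction were not counted. Of 4585 genes with over 50 CPM in any library, 8 had a level in KO2 replicate 1 under 0.25 of that in KO2 replicate 2, and the lowest ratio among the others was 0.617. Besides *Lars2*, the 8 were the mitochondrial ribosomal RNA genes *mt-Rnr1* and *mt-Rnr2*, the transcripts *Gm15564* and *AA474408*, the microRNA gene *mmu-mir-689-2*, and ENSMUSG00000106106 and ENSMUSG00000098973, which had no symbol in the annotation used. *mt-Rnr2* was at 6498 and 3768 CPM in WT and at 457 and 2038 CPM in KO2, and *Gm15564* at 6940 and 3354 CPM in WT and at 113 and 883 CPM in KO2. Both had the order of libraries seen in *Lars2*, as did *AA474408*. In the other 4, KO2 replicate 1 was again lowest, but KO2 replicate 2 was above WT replicate 2 in *mt-Rnr1* and ENSMUSG00000106106 and above both WT libraries in *mmu-mir-689-2* and ENSMUSG00000098973.

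The last exon block of *Lars2* (NCBIM37 chr9:123370617-123371782, 1166 bases) had 33 alignments elsewhere in the genome on 16 chromosomes (blastn, E-value of at most 1e-10), the longest of 244 bases. Of these, 32 lie between bases 293 and 691 of the block and 1 at bases 1010 to 1081. Among them were 167 bases within *Gm15564* at 97.6% identity and 196 bases within *AA474408* at 80.1% identity. The other exons of *Lars2* had no such alignment. The part of these copies, and of whatever set KO2 replicate 1 apart in the 8 genes, in the counts of *Lars2* was not tested, and these counts are uncertain as a measure of the synthetase transcript.

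**Figure D4:**
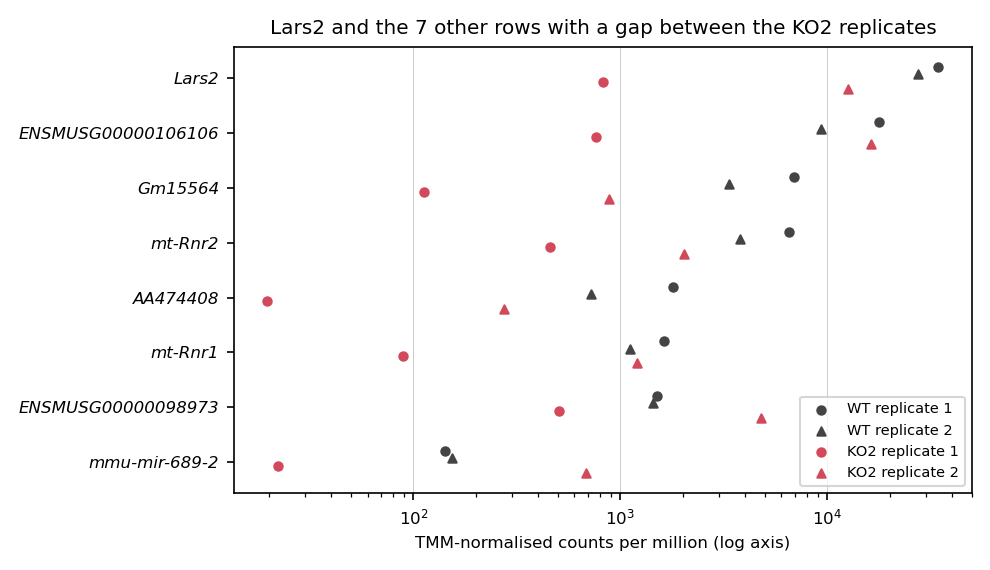
TMM-normalised CPM (log axis) of *Lars2* and the 7 other genes in which KO2 replicate 1 was under 0.25 of KO2 replicate 2, in WT (grey) and KO2 (red), with circles for replicate 1 and triangles for replicate 2. KO2 replicate 1 is the lowest mark in each of the 8 rows.

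Genes that act before and after tRNA charging were not called. Of 19 genes for tRNA processing and export, 5 for cytosolic elongation factors and 4 for mitochondrial ones, 0 passed edgeR's or DESeq2's test. In edgeR 5.64% of all genes tested passed, so 0 calls in lists this small do not set these genes apart. At an unadjusted p under 0.05 in edgeR, 5 of the 19, 1 of the 5 (*Eef1d*) and 0 of the 4 did, where 19.4% of all genes did.

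The response that activates many synthetase genes included calls. *Atf4* was at 436 and 332 CPM in WT and at 273 and 270 CPM in KO2 (log2 fold change −0.50, SE 0.12, edgeR adjusted p = 0.0239), and without WT replicate 1 its call was lost (log2 fold change −0.29, edgeR adjusted p = 0.265). The call of *Atf4* was also lost with ERCC size factors (edgeR adjusted p = 0.968) and without a filter (edgeR adjusted p = 0.298). Of the eIF2 kinases none was called. *Eif2ak1* (log2 fold change 0.57, edgeR adjusted p = 0.157) and *Eif2ak3* (0.60, edgeR adjusted p = 0.276) had positive values, *Eif2ak2* (−0.48, edgeR adjusted p = 0.0699) and *Eif2ak4* (−0.12, edgeR adjusted p = 0.763) negative ones. Of 25 ATF4 target genes outside the synthetases, 24 were tested, 9 fell and 0 rose, against 3.04% of all genes lower and 2.61% higher. DESeq2 called 8 lower and 0 higher, where 2.34% of the genes it tested were lower. The median log2 fold change of the 24 in edgeR was −0.53. This list too was drawn up with earlier results of these data known, so its counts are a description. The 9 became 5 without WT replicate 2, 7 without WT replicate 1 or KO2 replicate 2, and 10 without KO2 replicate 1.

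Of the 9, the calls of *Asns*, *Cth*, *Slc7a5* and *Mthfd2* held when any 1 library was left out. *Asns*, which makes asparagine, was at 1241 and 1232 CPM in WT and at 828 and 752 CPM in KO2 (log2 fold change −0.65, edgeR adjusted p = 0.000536). *Cth*, which makes cysteine from cystathionine, was at 138 and 132 CPM in WT and at 65.9 and 71.9 CPM in KO2 (log2 fold change −0.97, edgeR adjusted p = 0.000196). *Slc7a5*, a subunit of a leucine importer, was at 170 and 179 CPM in WT and at 114 and 93.0 CPM in KO2 (log2 fold change −0.75, edgeR adjusted p = 0.0019). These 3 genes were picked from the calls that held, and in all 3 both KO2 libraries lay below both WT libraries. Among all genes tested this order was found in 23.4%.

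The other 5 calls were each lost when a single library was left out. *Phgdh* of serine synthesis (log2 fold change −1.04) had −0.60 without WT replicate 2 (edgeR adjusted p = 0.288), and DESeq2 did not call it (adjusted p = 0.0616). *Psat1* of the same pathway (−0.45) lost its call without WT replicate 2 or KO2 replicate 2, and *Shmt2*, which interconverts serine and glycine in mitochondria (−0.77), without WT replicate 2. *Aldh18a1* lost it without WT replicate 1 or KO2 replicate 2, and *Vldlr* without WT replicate 1 or WT replicate 2. Among the genes of the list that were not called were *Psph* of serine synthesis (edgeR adjusted p = 0.0955), *Slc3a2*, the partner of *Slc7a5* (edgeR adjusted p = 0.189), and *Slc7a11*, a cystine importer (edgeR adjusted p = 0.119), which were named after their values were seen. Named in the same way are the 3 of the 24 with a log2 fold change above 0. They were *Atf3* (0.56), *Sesn2* (0.38) and *Ddit3* (0.20), none of them called. With ERCC size factors 1 of the 9 calls held, as did 0 of the cytosolic synthetase calls. Without a filter 1 of the 9 held (*Asns*, edgeR adjusted p = 0.0436), as did that of *Cars* among the cytosolic synthetases.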

How the data were processed

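Per the labels and the study's methods, total RNA was depleted of ribosomal RNA, strand-specific libraries were sequenced, HISAT2 aligned the reads to mm9, HTSeq counted them per gene, and DESeq2 was used. Their versions, the annotation and the strand setting are not given in the sources used here. The authors deposited raw counts for each of the 4 samples, neither normalised nor pooled. Reads with several alignments are not counted by HTSeq, and genes with close copies can lose counts. Gene symbols and loci came from GENCODE vM1 on NCBIM37, the build of the files, and promoters from RefSeq. The 92 ERCC rows and 5 summary rows were kept out of library sizes and tests, and reads on genes made up 41.2% to 47.07% of all reads.

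Counts were scaled with TMM, filtered with filterByExpr (minimum count 10, minimum total 15) and compared with glmQLFit and glmQLFTest in edgeR 4.0.16 (limma 3.58.1, R 4.3.3), with group as the only term and Benjamini-Hochberg adjustment over the 12883 genes tested. Called means an adjusted p under 0.05. The standard error is the log2 fold change divided by the root of its F value. A count of 3 corresponds to 0.402 to 1.06 CPM before scaling. The fit was also run on counts simulated from its own means and dispersions. The outcome is not given here, and such counts cannot test gaps between replicates like that in KO2. Alternatives were RLE and ERCC size factors, no filter, a stricter filter of at least 10 counts per library in all 4 libraries, DESeq2 1.42.0, edgeR's older quasi-likelihood method, a block for the replicate number and leaving out each library. Leaving out *Lars2*, from the table or from the mitochondrial sum, was added after the data had been seen. Copies of exons were searched with blastn 2.17.0, and a near-identical copy is an alignment of at least 100 bases at 95% identity or more.

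Members and lists were chosen with earlier results of these data known. Values in every library are given for members called, their partner enzymes, the 3 members nearest the threshold, the highest and lowest fold change of each compartment and the scaffold genes. *Aars*, *Iars2* and the genes with a gap between KO2 replicates were added after their values were seen. Genes of other lists are named where called, with *Atf4*, the eIF2 kinases and a few uncalled genes named after their values were seen. A further list, of other genes for tRNA charging, is not reported here.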

Additional observations from a re-analysis of the deposited data

How the results depend on the processing

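The directions of *Cars*, *Nars*, *Lars*, *Sars*, *Gars* and *Lars2* stayed the same in every alternative run. Of 12 alternatives, *Cars* kept its call in 11, *Nars* in 9, *Lars* in 8, *Sars* in 7 and *Gars* in 3, and *Lars2* in 6 of 11. The number of genes called was 727, and it was 163 with ERCC size factors, 61 without a filter, 454 with DESeq2 and 270 to 691 with 1 library left out. The number of cytosolic synthetases called lower was 5, and it was 0 with ERCC size factors, 1 without a filter and 1 to 4 with 1 library left out. The 1 call among mitochondrial synthetases (*Lars2*) became 0 without a filter, with DESeq2, with the older quasi-likelihood method and with *Lars2* left out. It was also lost without WT replicate 1, and without WT replicate 2 *Cars2* was called in place of *Lars2*. The difference of the compartments' medians (0.04) ranged from −0.0776 to 0.151 with 1 library left out, and was below 0 without WT replicate 1 (−0.0776) or KO2 replicate 1 (−0.00142). The difference of the summed log2 ratios (2.72) was −0.0932 without *Lars2*. The causes were not tested. Without a filter the median log2 fold change of all genes was 0.12, against 0.01.

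Deviations of libraries with the same replicate number correlated at −0.00658 over 12883 genes. This showed no pairing over all genes together, and it cannot show pairing limited to a few genes. With a replicate block, 950 genes were called, with 4 cytosolic synthetases lower (*Gars* lost its call) and 1 mitochondrial one, and the difference of medians was 0.03. The mitochondrial one was *Lars2*, with a log2 fold change of −3.25 (edgeR adjusted p = 2.44e-22) against −2.20 without the block. Replicate 1 of *Lars2* was the higher in WT (34471 and 27333 CPM) and the lower in KO2 (823 and 12591 CPM). A replicate term shared by both groups cannot describe this, so the small adjusted p is not read as stronger evidence. Lower counts gave the 14 other mitochondrial genes standard errors of up to 0.40, against at most 0.16 in the cytosolic ones.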
